A study of Rattus norvegicus with 304 samples.

Results

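Inmt encodes indolethylamine N-methyltransferase, an enzyme that passes a methyl group from S-adenosylmethionine to tryptamine and related amines. It was 1 of 50 genes measured by quantitative PCR in the livers of rats given the dioxin TCDD once by mouth. It was found by its gene symbol in both deposited fold change tables, where it accounts for 71 of 3157 values. All of its values were used: 16 Long-Evans and 20 Han/Wistar groups on the OpenArray, with 15 Long-Evans and 20 Han/Wistar groups on the 7900HT. The OpenArray carries preloaded assays in nanolitre wells and listed 49 targets, whereas the 7900HT is a conventional real-time PCR instrument and listed 39, with 38 targets on both.

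The animals were male rats of 10-12 weeks, given TCDD or the corn oil vehicle by gavage. The labels call Long-Evans the sensitive and Han/Wistar the resistant strain. In the dose arm, livers were taken at 19 h after 0.001, 0.01, 0.1, 1, 10, 50, 100 or 1000 µg/kg in Long-Evans, and after 0.001, 0.01, 0.1, 1, 10, 100, 1000 or 3000 µg/kg in Han/Wistar. In the time arm, TCDD at 100 µg/kg was followed at 3, 6, 10, 19, 96 and 240 h in Long-Evans and at 1.5, 3, 6, 10, 19, 96, 240 and 384 h in Han/Wistar. Corn oil groups were taken at 19, 96 and 240 h in Long-Evans and at 1.5, 19, 96, 240 and 384 h in Han/Wistar. The 100 µg/kg group at 19 h belongs to both arms. Each platform had 36 groups of 3 to 7 samples, with 150 samples on the OpenArray and 154 on the 7900HT, and 150 sample titles occur on both, so the platforms are not independent measurements of different animals. The labels call the samples biological replicates.

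The receptor of TCDD is AHR, the aryl hydrocarbon receptor, which pairs with ARNT on DNA and switches on genes of foreign-compound metabolism such as Cyp1a1. The same exposure also lowers the mRNA of other liver genes. Han/Wistar rats carry an altered AHR with a changed transactivation domain. INMT methylates indoleamines in mammals and can also methylate sulfur and selenium compounds.

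Each value of the authors' deposited table is 1 log2 fold change per gene and group, relative to that strain's corn oil livers at 19 h, which stand at 0 for every gene. The headers state neither the log base nor the direction. Both, and the reference group, were inferred from the zeros of that group and the size of Cyp1a1 induction. The table gives no spread between animals, so the error of a single value is unknown, and the number of amplified molecules behind it is unknown too. Neighbouring doses or times therefore cannot be told apart from noise one by one, and groups were the units of every test. The spread of the corn oil groups at other times served as the background. In whole liver, fewer cells of a type and less RNA per cell cannot be told apart. Of 7 hepatocyte markers, 4 were on the platforms (Cyp1a2, Ugt1a1, Mug1 and Fmo1), and 0 of 17 markers of other liver cell types were. Fold changes against the same tissue cannot check its identity.

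The Inmt assay is named Rn01410178_m1 in the raw OpenArray table, without its primer or probe sequence. To show the region that the gene is transcribed from, the 250 bases before its start are given from RefSeq (assembly GRCr8, chr4:85652756-85653005, minus strand). The letters are in the direction of the gene, and the capitals mark a TATAAA, the core of a TATA box, that starts 21 bases before the transcription start.
Inmt, upstream of the start: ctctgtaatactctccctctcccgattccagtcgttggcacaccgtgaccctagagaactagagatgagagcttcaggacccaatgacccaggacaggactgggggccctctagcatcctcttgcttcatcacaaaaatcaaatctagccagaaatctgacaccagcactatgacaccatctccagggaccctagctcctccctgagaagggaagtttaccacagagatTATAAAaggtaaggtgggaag
No GCGTG, the core letters of the element that AHR and ARNT bind, was found in these bases on either strand. The same search found GCGTG in 25.9% of 33469 rat promoters of this length and in 19 of the 43 panel targets that have a promoter in the table. TATAAA on the gene strand occurred in 8.06% of all promoters and in 6 of the 43. CACGTG, an E-box, was absent from the Inmt bases on both strands and occurred in 5.59% of all promoters. These matches describe letters only.

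The dose arm asks from which dose Inmt responds at 19 h. On the OpenArray, Inmt fell with dose in both strains. In the authors' deposited table the 8 Long-Evans values, from 0.001 to 1000 µg/kg, were -0.42, 0.16, 0.14, -0.73, -1.99, -2.28, -3.95 and -3.76. The 8 Han/Wistar values in the authors' deposited table, from 0.001 to 3000 µg/kg, were -0.40, -0.45, -0.20, -1.24, -2.74, -4.47, -4.96 and -5.16. In both strains the 3 lowest doses lay within 0.5 of corn oil at 19 h, and every dose from 1 µg/kg up lay below them. At 100 µg/kg these values correspond to 6.47% of the corn oil level in Long-Evans and 4.50% in Han/Wistar, 15.4-fold and 22.2-fold lower, computed from the authors' deposited table. At 10 µg/kg and above, Inmt had the lowest value of all 49 targets in every dose group of both strains. The corn oil groups at other times, by contrast, held -0.06 and 1.17 in Long-Evans, and between 0.45 and 1.53 in the 4 Han/Wistar groups of the authors' deposited table.

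Spearman's rho of the OpenArray value against log10 dose was -0.90 in Long-Evans (8 groups, two-sided exact permutation over 40320 orders, p = 0.00456, Benjamini-Hochberg adjusted p = 0.0102). In Han/Wistar it was -0.93 (exact permutation p = 0.00223, adjusted p = 0.0122). By the same test, 26.5% of the 49 targets fell with dose in Long-Evans and 20.4% in Han/Wistar, so that a decline with dose was shared by many targets. In the other direction, 53.1% rose in Long-Evans, with 38.8% for Han/Wistar. At 100 µg/kg the authors' deposited table put the median target at 0.59 for Long-Evans and 0.23 for Han/Wistar, and the Inmt trend kept its call after centring on it. In Han/Wistar the adjusted p was 0.0548 without the 1 µg/kg group (exact permutation, 7 groups).

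**Figure D1:**
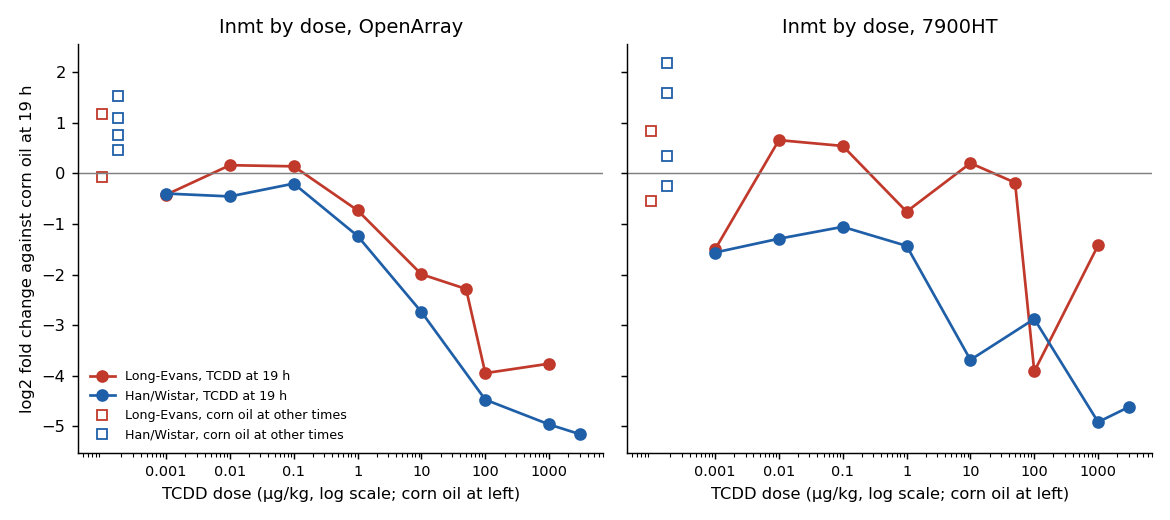
Log2 fold change of Inmt against corn oil at 19 h (vertical) by TCDD dose on a log scale (horizontal), OpenArray left and 7900HT right, with Long-Evans in red and Han/Wistar in blue, 1 deposited value per point and open squares for corn oil groups at other times. OpenArray values decline in both strains above 0.1 µg/kg, whereas the Long-Evans line on the 7900HT goes back to 0.20 at 10 µg/kg and -1.42 at 1000 µg/kg.

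On the 7900HT the same trend did not pass. The Long-Evans values in the authors' deposited table, in the same order of doses, were -1.50, 0.66, 0.54, -0.75, 0.20, -0.18, -3.92 and -1.42. Only the 100 µg/kg group stands clearly apart from the rest there. The Han/Wistar values in the authors' deposited table were -1.56, -1.29, -1.05, -1.43, -3.69, -2.88, -4.92 and -4.62, with the 4 highest doses below the 4 lowest. Spearman's rho was -0.38 in Long-Evans (exact permutation p = 0.360, adjusted p = 0.690), and -0.79 in Han/Wistar (exact permutation p = 0.0279, adjusted p = 0.136). The Long-Evans value depended on single groups, with -0.86 without 0.001 µg/kg and -0.14 without 100 µg/kg, and passed in neither case. The background gives a reading of the platform: 0% of 39 targets fell with dose in either strain after adjustment, and in Han/Wistar 10 targets of either direction had an unadjusted exact permutation p under 0.05. After adjustment 2.56%, which is 1 target, Cyp1b1, rose in Han/Wistar and 0% in Long-Evans. By Pearson's r the Han/Wistar trend was -0.88 (exact permutation adjusted p = 0.0630).

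The midpoint dose is the lowest dose at which a target crosses the midpoint between 0 and its value at 100 µg/kg, read by a straight line against log10 dose. For Inmt on the OpenArray it was 9.66 µg/kg in Long-Evans and 4.63 µg/kg in Han/Wistar. The median over targets with at least a 2-fold change at 100 µg/kg was 1.91 µg/kg in Long-Evans (22 targets) and 1.01 µg/kg in Han/Wistar (17 of 18 with a crossing). By this mark, Inmt lay toward the high end of the doses on the OpenArray. In Long-Evans 1 target, Exoc3, a vesicle-tethering subunit, had a higher midpoint dose, at 26.7 µg/kg. In Han/Wistar 3 had one: Exoc3 at 38.9 µg/kg, Cyp2a1 at 15.5 µg/kg and Scn4b, a sodium channel subunit, at 4.63 µg/kg, the same as Inmt in the digits given. Cyp1a1, the classical AHR target, crossed its midpoint at 0.0463 µg/kg in Long-Evans and 0.0401 µg/kg in Han/Wistar, and Nqo1, a quinone reductase, did so at 0.322 µg/kg in Long-Evans and 0.483 µg/kg in Han/Wistar. These doses are descriptions without an error, and depend on the 100 µg/kg group alone for their upper end. The place of Inmt also depends on the mark. With a 2-fold change as the mark, Inmt stood at 1.64 µg/kg in Long-Evans and 0.592 µg/kg in Han/Wistar. Nqo1 then stood at 0.0560 and 0.173 µg/kg, and Ccbl1, a kynurenine aminotransferase, at 5.49 and 6.11 µg/kg, in the same order of strains. On the 7900HT Inmt did not stand high: the Long-Evans midpoint dose was 69.5 µg/kg against a median of 79.0 µg/kg over 16 targets, with 10 above Inmt and 5 below. In Han/Wistar the deposited 7900HT values gave none, because Inmt was past its midpoint at the lowest dose. After each of 4 centrings the Han/Wistar dose lay between 1.18 and 3.31 µg/kg.

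The time arm asks when Inmt responds to 100 µg/kg and whether the change lasts. On the OpenArray, Inmt was near the corn oil level of 19 h in the first hours, lower by 10 h, far lower by 19 h, and still low at the last time in both strains. Neither strain had a corn oil group at 3, 6 or 10 h, so the onset has no control of the same hour. At 3, 6, 10, 19, 96 and 240 h, the Long-Evans values in the authors' deposited table were -0.37, -0.49, -1.71, -3.95, -7.83 and -5.80. From 1.5 to 384 h, the Han/Wistar values in the authors' deposited table were 0.64, -0.41, -0.27, -1.68, -4.47, -3.75, -4.13 and -4.99. Long-Evans had its lowest value at 96 h, while the Han/Wistar groups from 19 h on lay between -3.75 and -4.99. From 10 h on, Inmt had the lowest value of all OpenArray targets in every 100 µg/kg group. At 3 h, by contrast, 9 targets were lower in each strain, led by Fdft1, an enzyme of sterol synthesis, which the authors' deposited table lists at -0.97 for Long-Evans and -1.36 for Han/Wistar.

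On the OpenArray, Inmt also reached its 19 h value later than most other changed targets, the larger part of which rose. At 3, 6 and 10 h it had reached 9.28%, 12.3% and 43.2% of its 19 h log2 change in Long-Evans. In Han/Wistar it had reached 9.06%, 6.08% and 37.5%. The median over the targets changed at least 2-fold at 19 h was 56.8%, 70.2% and 79.4% for Long-Evans, with 59.3%, 81.7% and 81.6% for Han/Wistar. At 10 h, 20 of 21 other such targets in Long-Evans and 15 of 17 in Han/Wistar had reached a larger share than Inmt. Nrbp2, a pseudokinase, was below Inmt in both strains, with 16.4% in Long-Evans and 19.4% in Han/Wistar, and Ugt1a1 was below it in Han/Wistar with 32.0%. Counting Inmt, 4 of the 22 changed targets in Long-Evans and 3 of the 18 in Han/Wistar were lower at 19 h. In Han/Wistar the lower ones besides Inmt were Nrbp2 and Ugt1a1, so Inmt was not late among them. In Long-Evans the lower targets Glud1 and Sdc1 had reached 71.5% and 85.7% at 10 h, ahead of Inmt. The 7900HT differed between strains. At 10 h Inmt had reached 31.5% in Long-Evans, where the median of 25 targets was 101.8% and 1 target was below Inmt. In Han/Wistar it had reached 54.3%, where the median of 30 targets was 38.5%, and 21 targets were below Inmt and 8 above it.

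**Figure D2:**
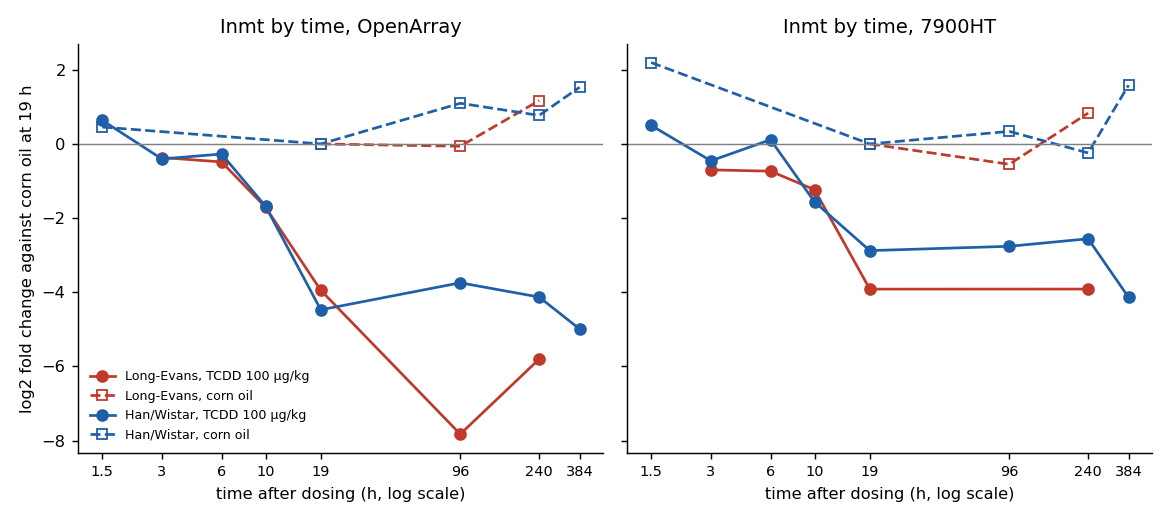
Log2 fold change of Inmt against corn oil at 19 h (vertical) by hours after dosing on a log scale (horizontal), OpenArray left and 7900HT right, with filled points for TCDD at 100 µg/kg and open squares for corn oil, 1 deposited value per point. On the OpenArray both strains separate from corn oil between 6 and 19 h, and Long-Evans goes on to -7.83 at 96 h.

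The corn oil level itself moved with time, so each TCDD group was also set against corn oil of the same hour. In Long-Evans the OpenArray difference, TCDD minus corn oil, was -3.95, -7.76 and -6.97 at 19, 96 and 240 h, computed from the authors' deposited table. These are 15.4-fold, 217-fold and 126-fold lower levels, or 6.47%, 0.460% and 0.796% of corn oil. In Han/Wistar the differences from the authors' deposited table were 0.18, -4.47, -4.84, -4.90 and -6.52 at 1.5, 19, 96, 240 and 384 h, so that Inmt was 22.2-fold lower at 19 h and 91.8-fold lower at 384 h. The 384 h figure rests in part on a corn oil group at 1.53, the highest of the Han/Wistar corn oil groups on the OpenArray. In every one of these pairs from 19 h on, Inmt showed the largest decrease of the OpenArray targets listed in both groups. The 7900HT has no Long-Evans value of Inmt at 96 h, and at 240 h it put Inmt 26.8-fold lower than corn oil, where the OpenArray gave 126-fold.

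Over all hours together, the OpenArray mean of the TCDD groups minus that of the corn oil groups was -3.73 in Long-Evans (6 against 3 groups, two-sided exact permutation over 84 splits, p = 0.0595, adjusted p = 0.0941). It was -3.15 in Han/Wistar (8 against 5 groups, 1287 splits, exact permutation p = 0.0101, adjusted p = 0.0254). The Long-Evans difference did not pass, although its 6 TCDD groups all lay below its 3 corn oil groups. By this test 2.04% of the 49 targets were lower in each strain, which is 1 target: Slco1a1, an organic anion transporter, in Long-Evans and Inmt in Han/Wistar. Higher levels were called for 30.6% in Long-Evans and 53.1% in Han/Wistar. In Han/Wistar the adjusted p was 0.0585 without the corn oil group at 384 h (exact permutation).

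On the 7900HT the Long-Evans values in the authors' deposited table were -0.70, -0.74, -1.23, -3.92 and -3.91 at 3, 6, 10, 19 and 240 h, with no value at 96 h. The Han/Wistar values in the authors' deposited table were 0.50, -0.46, 0.11, -1.56, -2.88, -2.76, -2.56 and -4.14 from 1.5 to 384 h. The corn oil values in the authors' deposited table were -0.55 and 0.83 for Long-Evans at 96 and 240 h, and 2.19, 0.34, -0.24 and 1.58 at 1.5, 96, 240 and 384 h in Han/Wistar. The groups from 19 h on again lay below every corn oil group of their strain. The difference of means was -2.19 in Long-Evans (5 against 3 groups, exact permutation p = 0.0893, adjusted p = 0.174) and -2.49 in Han/Wistar (exact permutation p = 0.0171, adjusted p = 0.0476). Here 0% of 39 targets were called lower in Long-Evans and 20.5% in Han/Wistar, and 0% and 15.4% higher. The Han/Wistar call is weak, since leaving out 1 group at a time ended it in 11 of 13 cases, with adjusted p from 0.0328 to 0.0998 (exact permutation).

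Against corn oil of the same hour, the 7900HT differences computed from the authors' deposited table were -3.92 at 19 h and -4.75 at 240 h in Long-Evans. In Han/Wistar they were -1.70, -2.88, -3.10, -2.32 and -5.72 from 1.5 to 384 h. Inmt ranked 2 at 19 h and 3 at 240 h from the lowest of 39 targets in Long-Evans. In Han/Wistar it ranked 8, 6, 2, 6 and 3 from the lowest at 1.5, 19, 96, 240 and 384 h. In Long-Evans, Ahrr, the AHR repressor, was lower than Inmt at both hours, with differences of -9.11 at 19 h and -6.06 at 240 h computed from the authors' deposited table. On the OpenArray Ahrr went the other way, at 7.86 in Long-Evans at 19 h after 100 µg/kg in the authors' deposited table.

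The strain comparison asks whether sensitive and resistant livers differ in the Inmt response. At matched doses at 19 h on the OpenArray, the Inmt value was higher in Long-Evans at 6 of 7 doses. At 0.01 and 0.1 µg/kg the Long-Evans values, 0.16 and 0.14 in the authors' deposited table, showed no reduction. The differences, Long-Evans minus Han/Wistar, were -0.02, 0.62, 0.34, 0.51, 0.75, 0.52 and 1.20 from 0.001 to 1000 µg/kg, computed from the authors' deposited table. Their mean was 0.56 (two-sided exact sign-flip permutation, p = 0.0313, adjusted p = 0.0901), which did not pass over the panel. With each group centred on its median, the mean was 0.34 (exact sign-flip permutation, adjusted p = 0.121). The background was 0% of 49 targets called, with 20 at an unadjusted exact permutation p under 0.05. Every pair shares the 2 corn oil groups at 19 h, so an error in either shifts all 7 differences alike.

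Over the 6 shared times at 100 µg/kg the order turned with time. The OpenArray differences, Long-Evans minus Han/Wistar, computed from the authors' deposited table were 0.04, -0.21, -0.03, 0.52, -4.08 and -1.67 at 3, 6, 10, 19, 96 and 240 h. Inmt was thus lower in Long-Evans at 96 and 240 h, and close between strains up to 10 h. Against corn oil of the same hour the gap was -2.92 at 96 h and -2.07 at 240 h. The mean over the 6 times was -0.91 (exact sign-flip permutation p = 0.344, adjusted p = 0.468) and -0.27 without the 96 h group, and 0% of the 49 targets were called, with 19 at an unadjusted exact permutation p under 0.05. The test looks for 1 offset over all hours, and the late gap itself, 2 groups a strain, was not tested.

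**Figure D3:**
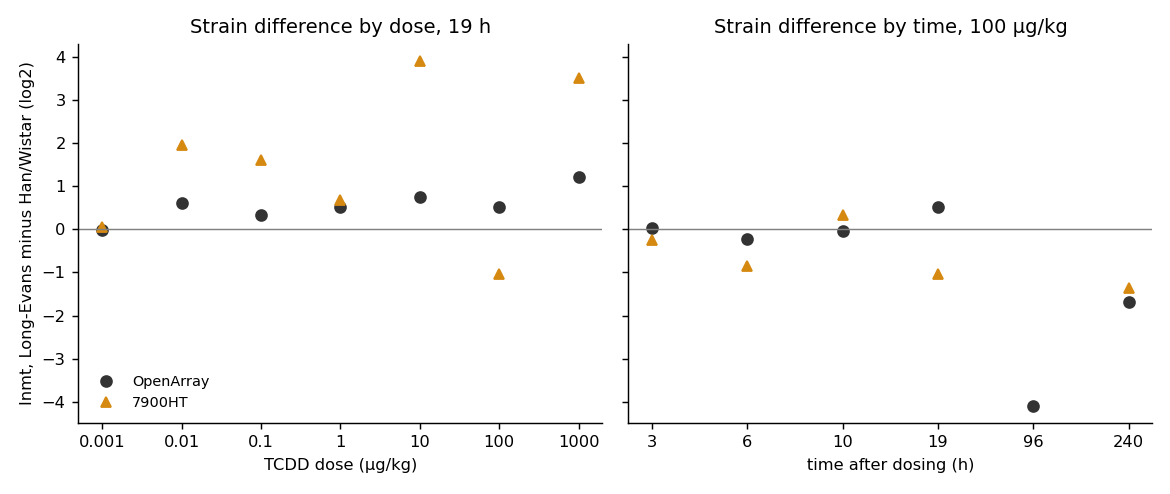
Long-Evans minus Han/Wistar log2 fold change of Inmt (vertical) by TCDD dose at 19 h (left) and by hours after 100 µg/kg (right), with black circles for the OpenArray and orange triangles for the 7900HT, 1 difference of deposited values per point. OpenArray points lie above 0 at 6 of 7 doses and drop to -4.08 at 96 h and -1.67 at 240 h, where the 7900HT point is at -1.36.

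On the 7900HT the mean difference was 1.52 over the 7 doses (exact sign-flip permutation p = 0.0781, adjusted p = 0.406) and -0.63 over 5 times (exact permutation p = 0.188, adjusted p = 0.281). Of 39 targets 0% were called in either test, with 2 at an unadjusted exact permutation p under 0.05 over doses and 15 over times. At 240 h the gap was -1.36, and -2.43 against corn oil of the same hour, computed from the authors' deposited table. The 7900HT means depended on the centre. With targets that have 4 rows per gene in the raw table, as Inmt has, centred on their median, the mean was -0.17 over doses and 0.54 over times. With the 4 of those targets outside the AHR battery, a gene list drawn up here and given below, as the centre, it was 0.88 over doses and 0.12 over times.

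The platforms were then set side by side, over groups given 1 µg/kg or more. In Han/Wistar the 12 values ranked alike, with Spearman's rho of 0.93 (permutation p = 2.0e-05, adjusted p = 0.00076) and Pearson's r of 0.94 (permutation p = 1e-05, the smallest that the resamples can give, adjusted p = 0.00038). Without the 2 groups farthest from the median, r was 0.88 (n = 10). In Long-Evans, over 9 groups, rho was 0.58 (exact permutation p = 0.108, adjusted p = 0.228) and r was 0.78 (exact permutation p = 0.0161, adjusted p = 0.0612). Without the 2 farthest groups the Long-Evans r was 0.20 (n = 7, exact permutation p = 0.650), so that the relation rests on them. Of the 38 shared targets, 18.4% passed for rho in Long-Evans and 10.5% in Han/Wistar, and 23.7% and 18.4% for r. The sign was the same on both platforms in 8 of 9 Long-Evans groups and 11 of 12 Han/Wistar groups.

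The largest Long-Evans gaps between platforms sat in 3 dose groups. OpenArray minus 7900HT was -2.20, -2.10 and -2.34 at 10, 50 and 1000 µg/kg, computed from the authors' deposited table. It was also -1.89 at 240 h after 100 µg/kg. In the 3 dose groups the other targets with as many rows as Inmt in the raw 7900HT table, 4 per gene, had medians of 3.71, 4.26 and 4.43 in the authors' deposited table. The 25 targets with 2 rows had medians of -2.73, -2.22 and -2.08 there. At 240 h these medians lay closer together, at 2.01 for 4 rows and 0.39 for 2 rows. The part of this split in the Inmt values was not tested, but Inmt was recomputed relative to targets of its own kind.

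Of the 12 other 4-row targets listed in every group, 8 belong to the AHR battery, and 7 in Long-Evans and 6 in Han/Wistar rose with dose on the OpenArray. Centring on all of them by itself pushes Inmt lower as dose rises. The 4 outside the battery were therefore tried as another centre, an alternative chosen after seeing the data. They were Ahr, Arnt, Cyp2s1, a cytochrome P450, and Gfer, a mitochondrial sulfhydryl oxidase. This centre is not free of the same fault: Ahr is among the 7 that rose in Long-Evans (rho 0.76, exact permutation adjusted p = 0.0462), and Arnt has no OpenArray value. The median of the 4 on the 7900HT also tended higher at the higher doses, computed from the authors' deposited table as 0.44, -1.004, -1.63, -1.22, 0.98, 1.07, -0.40 and 0.97 in the 8 Long-Evans groups. In the 8 Han/Wistar groups it was -2.02, -1.65, -0.70, -0.94, -1.01, -0.10, 0.08 and -0.17. On this scale the Long-Evans dose series, computed from the authors' deposited table, was -1.94, 1.66, 2.18, 0.46, -0.77, -1.25, -3.52 and -2.39. The 10, 50 and 1000 µg/kg groups then lay below the 1 µg/kg group, as on the OpenArray. The rho between platforms became 0.98 in Long-Evans, against 0.58 as deposited, and 0.85 in Han/Wistar, against 0.93 as deposited. The 7900HT dose trends became -0.60 in Long-Evans and -0.98 in Han/Wistar. Since subtracting a centre that is higher at higher doses itself lowers Inmt there, these values are no independent test of a trend or of agreement.

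**Figure D4:**
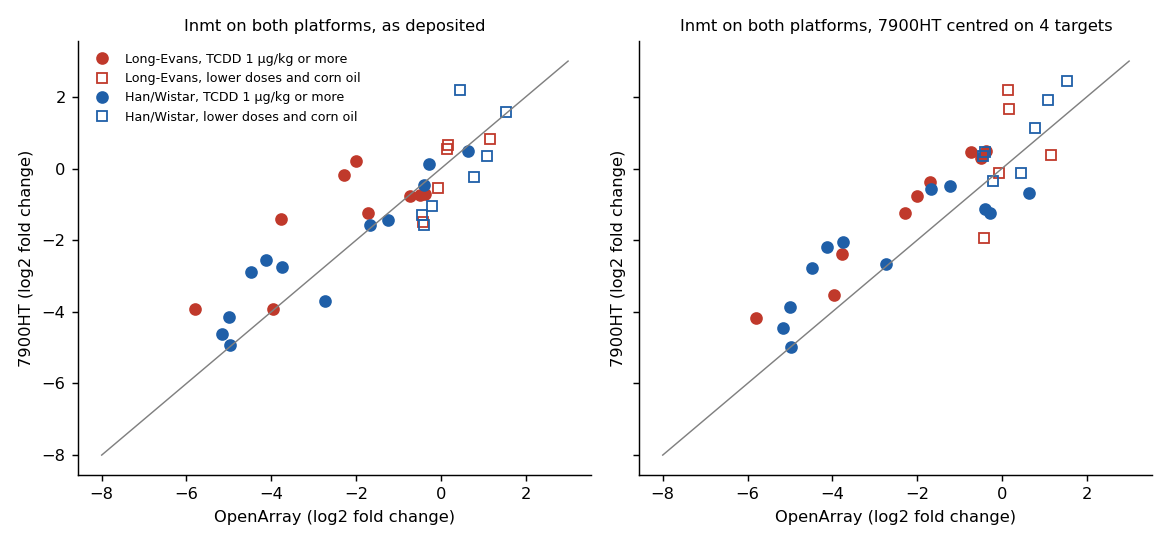
Inmt log2 fold change on the OpenArray (horizontal) against the 7900HT (vertical), as deposited (left) and with the 7900HT value centred on the median of Ahr, Arnt, Cyp2s1 and Gfer (right), with filled circles for TCDD at 1 µg/kg or more, open squares for other groups, Long-Evans in red, Han/Wistar in blue and a line of equal values. As deposited, 3 Long-Evans groups lie more than 2 above the line, and after centring their 7900HT values are -0.77, -1.25 and -2.39.

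Other targets were ranked by how closely their values followed those of Inmt. Over the OpenArray groups other than corn oil at 19 h (15 in Long-Evans and 19 in Han/Wistar), the highest mean of the Pearson's r of both strains belonged to Glud1, glutamate dehydrogenase, with 0.84 in Long-Evans and 0.93 in Han/Wistar. Next were Slco1a1 with 0.81 and 0.83, and Fmo1, a flavin-containing monooxygenase, with 0.78 and 0.78. The lowest mean r over both strains belonged to Cyp2a1, a cytochrome P450, with -0.95 and -0.87, Perp, a membrane protein of cell junctions, with -0.93 and -0.88, and Cyp1b1, an AHR-induced cytochrome P450, with -0.87 and -0.89. Of the 48 other targets, 17 had a mean r above 0. These groups share 1 corn oil reference per strain and the RNA of each group, so the values describe the panel and carry no test. On the 7900HT the likeness of the leading targets was weaker, with r of 0.01 in Long-Evans and 0.43 in Han/Wistar for Glud1, -0.19 and 0.20 for Slco1a1, and 0.07 and 0.46 for Fmo1.

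On the OpenArray, the targets most like Inmt had smaller decreases. Glud1 in the authors' deposited OpenArray table had -1.12, -1.62 and -1.67 at 19, 96 and 240 h after 100 µg/kg in Long-Evans, with -0.79, -0.77 and -1.13 for Han/Wistar. Fmo1 in the authors' deposited table had -0.74, -2.36 and -5.28 for Long-Evans, with -0.62, -0.64 and -1.96 for Han/Wistar, at those hours, and came closest to Inmt in Long-Evans at 240 h. In the authors' deposited table Slco1a1 lay between -0.75 and -1.23 for Long-Evans and between -0.37 and -0.91 for Han/Wistar at those hours. With dose on the OpenArray, all of them fell: rho was -0.98 and -0.95 for Glud1, -0.93 and -0.88 for Slco1a1, and -0.88 and -0.81 for Fmo1, in Long-Evans and Han/Wistar in that order (exact permutation, highest adjusted p = 0.0381). On the 7900HT, Fmo1 was lower than Inmt at 240 h, at -4.20 against -3.91 in Long-Evans and -2.69 against -2.56 in Han/Wistar. Slco1a1 lay there at -2.90 against -2.88 for Inmt at 19 h in Han/Wistar.

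**Figure D5:**
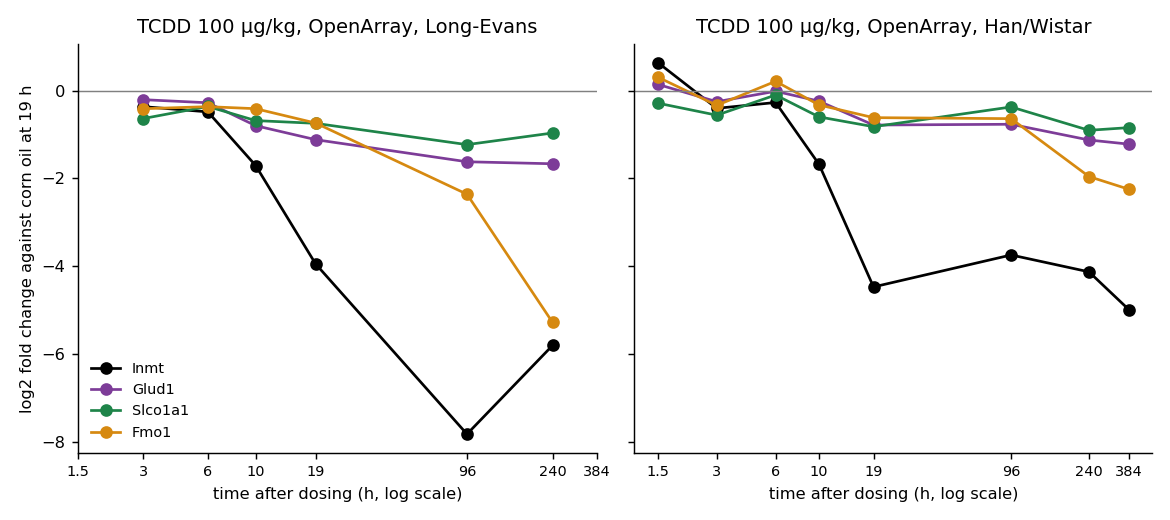
Log2 fold change against corn oil at 19 h (vertical) by hours after TCDD at 100 µg/kg on a log scale (horizontal) on the OpenArray, for Inmt and the 3 targets with the highest correlation to it, Long-Evans left and Han/Wistar right, 1 deposited value per point. From 10 h on Inmt is the lowest line in both strains, and Fmo1 comes near it at 240 h in Long-Evans, with -5.28 against -5.80.

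The 3 gene lists that hold Inmt place it among related genes, and they were chosen with results of these data known. What is called the AHR battery is a list drawn up here, and not every member is an established AHR target. Its 11 other members on the OpenArray were Cyp1a1, Cyp1a2, Cyp1b1, Nqo1, Aldh3a1, Ugt1a1, Tiparp, Ahrr, Nfe2l2, Exoc3 and Fmo1. In Long-Evans 8 of them rose with dose, 2 fell (Fmo1 and Ugt1a1, a glucuronosyltransferase) and 1 did not pass, and in Han/Wistar 6 rose, 2 fell and 3 did not pass. Over all 49 targets 53.1% rose and 26.5% fell in Long-Evans, with 38.8% and 20.4% for Han/Wistar. The median rho of the battery with Inmt was 0.88 in Long-Evans and 0.81 in Han/Wistar, beside 0.79 and 0.64 over all targets. Over the time course on the OpenArray, 7 of the 11 were higher in Long-Evans and 9 in Han/Wistar, and 0 were called lower. Over all 49 targets 30.6% were higher in Long-Evans and 53.1% in Han/Wistar, and 2.04% lower in each.

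Of the list of non-P450 metabolic enzymes, 7 besides Inmt were measured on the OpenArray. The list leaves out other enzymes of the panel, such as Fdft1 and Pmm1, so its shares and median depend on that choice. In both strains Fmo1, Glud1 and Ugt1a1 fell with dose, Aldh3a1, an aldehyde dehydrogenase, Ccbl1, a kynurenine aminotransferase, and Nqo1 rose, and Cyb5a, cytochrome b5, did not pass. These 3 lower and 3 higher of 7 stand beside 26.5% lower and 53.1% higher of all targets in Long-Evans, and 20.4% lower and 38.8% higher for Han/Wistar. The list's median rho, Inmt included, was -0.13 in Long-Evans and -0.37 in Han/Wistar, below the medians of all targets given above. On the 7900HT time course in Han/Wistar, Cyb5a and Glud1 fell and Nqo1 rose, where 20.5% of all targets were lower and 15.4% higher. Of 16 genes of tryptophan and indoleamine metabolism, Ccbl1 was the single one measured besides Inmt. Ccbl1 rose with dose on the OpenArray, at rho of 0.95 in Long-Evans (exact permutation, adjusted p = 0.00684) and 0.86 in Han/Wistar (exact permutation, adjusted p = 0.0219), opposite to Inmt. At 100 µg/kg and 19 h the authors' deposited table lists Ccbl1 at 2.15 for Long-Evans and 1.56 for Han/Wistar.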

How the data were processed

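Per the labels' protocols, liver total RNA was turned into cDNA and quantified by real-time PCR, on 7900HT instruments or with OpenArray plates. The deposited fold change tables hold 1 value computed by the authors for each gene and group, read here as a log2 ratio to that strain's corn oil livers at 19 h. No header states the log base or the direction, and the reference group was inferred too. Nothing in the sources used here names the authors' reference genes or says how animals were averaged. The submitters' processing notes list R 2.12.2. The deposited tables of raw cycle values have 304 columns of animal codes that match no sample label. None was used, and only gene names, assay names and rows per gene were read from them.

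The labels' strain, treatment, dose and time set the groups. Every test was two-sided, was run on each target of a platform, and had Benjamini-Hochberg adjusted p-values, taken over all targets of that platform and strain (of the platform for strain tests), with a threshold of 0.05. Dose trends used Spearman's rho over 8 groups with all orders, time courses all ways to divide the groups, strain tests all sign flips of matched groups, and platform correlations 100000 resamples or, up to 9 groups, all orders. P-values measure the spread between groups. Midpoint doses and likeness between targets were descriptions without a test. Alternatives were centring on the mean, the median or targets with 4 rows, Pearson's r, joint adjustment, corn oil added as the lowest dose, matched times only and leaving out single groups. The procedures were tested on simulated data.

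The members and gene lists were chosen with earlier results of these data known. Targets were named by a rule: members of the 3 lists, the 3 targets most and the 3 least like Inmt on the OpenArray by the mean r of both strains, targets lower than Inmt in a 100 µg/kg group, and any target in a count of 5 or fewer. Those most and least like Inmt on the 7900HT are among the other observations. All 50 gene symbols matched RefSeq's table for GRCr8, and 43 had a promoter there. The software was scipy 1.17.1, numpy 2.4.6, pandas 2.3.3 and matplotlib 3.10.9 under Python 3.11.15.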

Additional observations from a re-analysis of the deposited data

How the results depend on the processing

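Of 198 alternatives of tested results, 174 kept direction and side of the threshold, 17 lost a call, 4 gained one and 3 changed sign. The 174 pool results that had passed with results that had not, for which keeping the side means failing again. They are thus no measure of how well the calls held. Of the 17 losses, 11 were the 7900HT Han/Wistar time course with 1 group left out. No paired analysis was possible because the fold change tables hold 1 value per group, and the animal codes of the raw tables match no replicate number in the labels. Only whole groups were matched, by dose or time. The OpenArray dose trends held in every alternative other than leaving out 1 µg/kg in Han/Wistar. With single groups left out, rho ran from -1 to -0.89 in Han/Wistar and from -0.96 to -0.86 in Long-Evans. The OpenArray Han/Wistar time course held in every alternative other than leaving out corn oil at 384 h (-3.58 to -2.78 with single groups left out). The 7900HT Han/Wistar time course, -2.81 to -2.14 with 1 group left out, did not pass when centred on the median (-2.42, exact permutation adjusted p = 0.0606), adjusted over both strains (-2.49, adjusted p = 0.0635) or limited to matched times (-3.14, adjusted p = 0.0825). Centring 7900HT targets with 4 rows on their median gave a Han/Wistar dose trend of -0.98 (-0.98 also with the targets outside the battery as the centre), strain differences of -0.17 over doses (0.88 with those outside the battery) and 0.54 over times (0.12 with those outside). Platform rho was then 0.97 in Long-Evans (0.98 with those outside), which passed, and 0.75 in Han/Wistar, which lost its call (permutation adjusted p = 0.0925; 0.85 with those outside, which passed). The midpoint dose on the OpenArray was 7.06, 8.62 and 1.64 µg/kg in Long-Evans and 4.07, 5.40 and 0.592 µg/kg in Han/Wistar with centring on the mean, on the median, or a 2-fold decrease as the mark. On the 7900HT it was 70.8 and 76.0 µg/kg in Long-Evans and 1.18 and 1.47 µg/kg in Han/Wistar with centring on the mean and the median. Apart from the centring, the cause of these changes was not tested. With 1 value per group, the precision behind a single dose or time is unknown.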

Other observations

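Inmt was also among the highest targets in corn oil livers taken at hours other than 19 h. On the OpenArray it ranked 49 of 49 from the lowest in Long-Evans at 240 h, at 1.17 in the authors' deposited table, and 48 of 48 in Han/Wistar at 384 h, at 1.53. It ranked 47 of 48 in Han/Wistar at 1.5 h, 45 of 49 at 96 h and 44 of 49 at 240 h, whereas in Long-Evans at 96 h it ranked 18 of 49. The median target in these OpenArray groups lay between -0.33 and 0.05 in the authors' deposited table. On the 7900HT Inmt ranked 11 of 39 at 96 h and 30 of 39 at 240 h in Long-Evans. In Han/Wistar it ranked there 31 of 39 at 1.5 h, 22 of 39 at 96 h, 13 of 38 at 240 h and 35 of 39 at 384 h. All of these values share the corn oil group at 19 h of their strain as their zero, and whether that group was low or the others high was not tested.

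On the 7900HT the targets most like Inmt were others than on the OpenArray. By the mean of the Pearson's r of both strains, the highest was Ern1, a sensor of unfolded proteins in the endoplasmic reticulum, with 0.36 in Long-Evans and 0.39 in Han/Wistar, then Ugt1a1 with 0.06 and 0.53 and Ahrr with 0.33 and 0.22. The lowest by that mean were Exoc3 with -0.84 and -0.47, Pmm1, a phosphomannomutase, with -0.65 and -0.48, and Cyp1b1 with -0.53 and -0.59. The groups are 14 in Long-Evans and 19 in Han/Wistar (13 and 17 for Ahrr), and the values are a description with no test. Cyp1b1 was among the 3 least like Inmt by that mean on both platforms. Ahrr, by contrast, had r of -0.86 in Long-Evans and -0.62 in Han/Wistar on the OpenArray.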
